A study of Rattus norvegicus with 8 samples.

Results

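Hearts of ovariectomized rats that received estradiol from the day of surgery were compared with hearts of rats that kept their ovaries, to see how near early replacement left each gene to its level with intact ovaries. The comparison used 4 of the 8 arrays of the series: 2 early estradiol arrays and 2 sham arrays, taken by their sample titles and paired by replicate number. All rats were aged female Norway Brown rats of 18 to 22 months. Sham rats had the body cavity opened and closed with nothing removed. Early estradiol rats lost both ovaries and received, at that operation, a pellet under the skin that held 0.5 mg of 17-β estradiol and released it over 90 days. The other groups, used only as reference points, were rats with ovariectomy alone and rats whose identical pellet was placed 9 weeks after ovariectomy (late estradiol), with 2 arrays each. The RNA on an array was an equal mix from 3 whole hearts. The sources used here do not give when the hearts were taken or whether a heart was used in several pools. The p-values and standard errors therefore measure the spread between pools, which may be technical in part.

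Estradiol is the main estrogen of the ovary. It binds the nuclear receptors encoded by Esr1 and Esr2, which act on genes directly or through coregulators, and the membrane receptor encoded by Gper1. In the heart and its vessels it is known for effects on nitric oxide production in endothelium, on matrix deposition by fibroblasts, on mitochondrial energy genes and on immune cells. Ovariectomy removes the ovarian source, and a pellet gives a steady exposure without the ovarian cycle and without progesterone.

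All levels below are log2 signals after quantile normalization over the 8 arrays, and a difference of 1 is 2-fold. A signal cannot be compared between probe sets. Before normalization the trimmed mean signal ran from 28.1 to 69.8 on the replicate 1 arrays and from 104 to 137 on the replicate 2 arrays. The 3' to 5' ratio of GAPDH, a sign of RNA integrity, was 1.56 and 1.39 in sham and 1.52 and 1.26 with early estradiol. Late estradiol replicate 1 stood apart at 2.70. The same ratio of beta-actin was less even, at 1.90 and 2.75 in sham and 2.19 and 2.54 with early estradiol. It was highest in ovariectomy replicate 2, at 3.06, and late estradiol replicate 1, at 3.01. The heart label fitted the markers of heart muscle: 7 cardiomyocyte genes were measured, and their median level was 12.63 and 12.58 in sham and 12.73 and 12.52 with early estradiol. In whole-heart RNA, fewer cells of a type and less RNA per cell cannot be told apart.

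No gene could be placed apart from its sham level by test after early estradiol, and by size most genes lay near it. Of 18625 probe sets tested, 0 passed an adjusted p of 0.05 in limma (0% called), the smallest adjusted p was 0.999731, and 303 had an unadjusted p under 0.05. That is fewer than a threshold of 0.05 passes on average when no probe set differs, so these p-values may be too large. In a fit to the early estradiol and sham arrays alone, described below, 663 lay under 0.05. The reason was not tested. The early estradiol level lay within 1.5-fold of sham for 87.4% of probe sets and within 2-fold for 95.9%. The same shares were 82.5% and 93.7% for ovariectomy alone, and 77.5% and 91.6% for late estradiol. The median absolute difference from sham was 0.197 with early estradiol, 0.229 after ovariectomy and 0.284 with late estradiol. These comparisons share the sham arrays, and no test was made between the distances.

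Array by array, the SD over probe sets of the difference from the sham array of the same number was 0.710 in replicate 1 and 0.512 in replicate 2 for early estradiol. It was 0.800 and 0.640 after ovariectomy, and 0.940 and 0.579 with late estradiol. The early estradiol array was thus the nearest to sham in both replicates, although the sham arrays differed from each other by an SD of 0.793. In replicate 1 the trimmed mean signal before normalization had the same order: 69.8 in sham, 44.0 with early estradiol, 40.3 after ovariectomy and 28.1 with late estradiol. In replicate 2 it did not, at 105, 137, 116 and 104. The part of signal strength in these distances was not tested. The correlation across probe sets, which share arrays and base levels, was r = 0.924 and 0.960 between early estradiol and sham of the same number. It was 0.909 and 0.938 for ovariectomy and 0.877 and 0.949 for late estradiol. Between the sham arrays, which carry different replicate numbers, it was 0.905, so that value is no like measure for pairs of the same number. The order of distances from sham did not hold for the brightest genes. Probe sets were put in 4 equal groups by mean signal, from group 1, the dimmest, to group 4, the brightest. In group 4 the replicate 1 SD was 0.324 with early estradiol and 0.296 after ovariectomy, and the replicate 2 SD was 0.278 with early estradiol, 0.390 after ovariectomy and 0.275 with late estradiol.

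**Figure D1:**
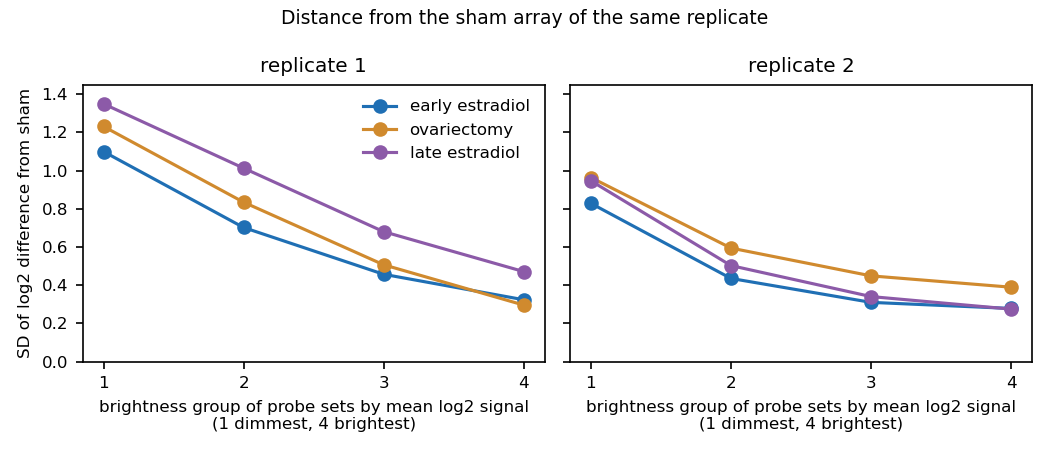
Distance from sham by brightness: the vertical axis is the SD over probe sets of the log2 difference from the sham array of the same replicate, and the horizontal axis is the brightness group of probe sets by mean log2 signal. Early estradiol lies below ovariectomy and late estradiol in the 3 dimmer groups of both replicates, and in group 4 it lies at 0.324 against 0.296 for ovariectomy in replicate 1 and at 0.278 against 0.275 for late estradiol in replicate 2.

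A missing call does not show that a level was restored, so the 95% limma interval of each difference was set against 2-fold. It lay inside 2-fold in both directions for 8801 probe sets, or 47.3%, with early estradiol. The count was 8349 (44.8%) after ovariectomy and 7757 (41.6%) with late estradiol. With 2 arrays per group, this measure followed brightness: 95.4% of brightness group 4 were bounded within 2-fold, 74.1% of group 3, 19.5% of group 2 and 0% of group 1. The median standard error grew from 0.211 in group 4 to 0.696 in group 1. The count depended on the arrays used, and was 4498 to 5169 when any one of the 4 early estradiol and sham arrays was left out.

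By size alone, 113 probe sets lay 2-fold from sham in the same direction in both replicates with early estradiol (0.607% of those tested), 58 of them higher (0.311%) and 55 lower (0.295%). The count was 209 after ovariectomy (1.12%) and 248 with late estradiol (1.33%). Of the 113, 96 belonged to brightness group 1 and 0 to group 4.

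The 10 genes of smallest p that lay above sham in both replicates included Pla2g2a, S100a9 and C3 of innate immunity, and none passed (adjusted p = 0.999731 in limma for each gene of this and the next paragraphs). Pla2g2a, a secreted phospholipase of the acute phase, had sham levels of 9.46 and 9.22, ovariectomy levels of 9.47 and 9.46, and early estradiol levels of 11.15 and 10.20. Both early estradiol arrays lay above all sham and ovariectomy arrays, and the difference from sham was 1.34 ± 0.22 (limma SE, n = 2 arrays per group), or 2.53-fold. S100a9, a calcium-binding alarmin of neutrophils, stood at 4.70 and 4.30 in sham, 4.06 and 5.40 after ovariectomy, and 8.19 and 6.03 with early estradiol (2.61 ± 0.64). C3, the central complement component, stood at 3.77 and 4.29 in sham, 4.23 and 4.47 after ovariectomy, and 7.39 and 5.65 with early estradiol (2.49 ± 0.60). Both genes kept the groups apart, with replicate 1 the higher early estradiol array by over 1 unit. Leaving out early estradiol replicate 1 brought Pla2g2a to 0.91, S100a9 to 1.53 and C3 to 1.76. Leaving out sham replicate 1 brought C3 to 1.71.

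A fit to the early estradiol and sham arrays alone, which estimates the spread from a single residual degree of freedom and the prior, called 4 probe sets. They were Pla2g2a at 1.34 (adjusted p = 0.0318), S100a9 at 2.61 (adjusted p = 0.0322), the dimmer of the Myh7 probe sets at 1.29 (adjusted p = 0.0309), and a probe set annotated to both C4a and C4b at 2.07 (adjusted p = 0.0192). In the fit over all 8 arrays the same probe sets had an adjusted p of 0.999731. Without early estradiol replicate 2, Pla2g2a (1.77, adjusted p = 0.0447) and Rundc3a (-3.39, adjusted p = 0.0447) passed.

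**Figure D2:**
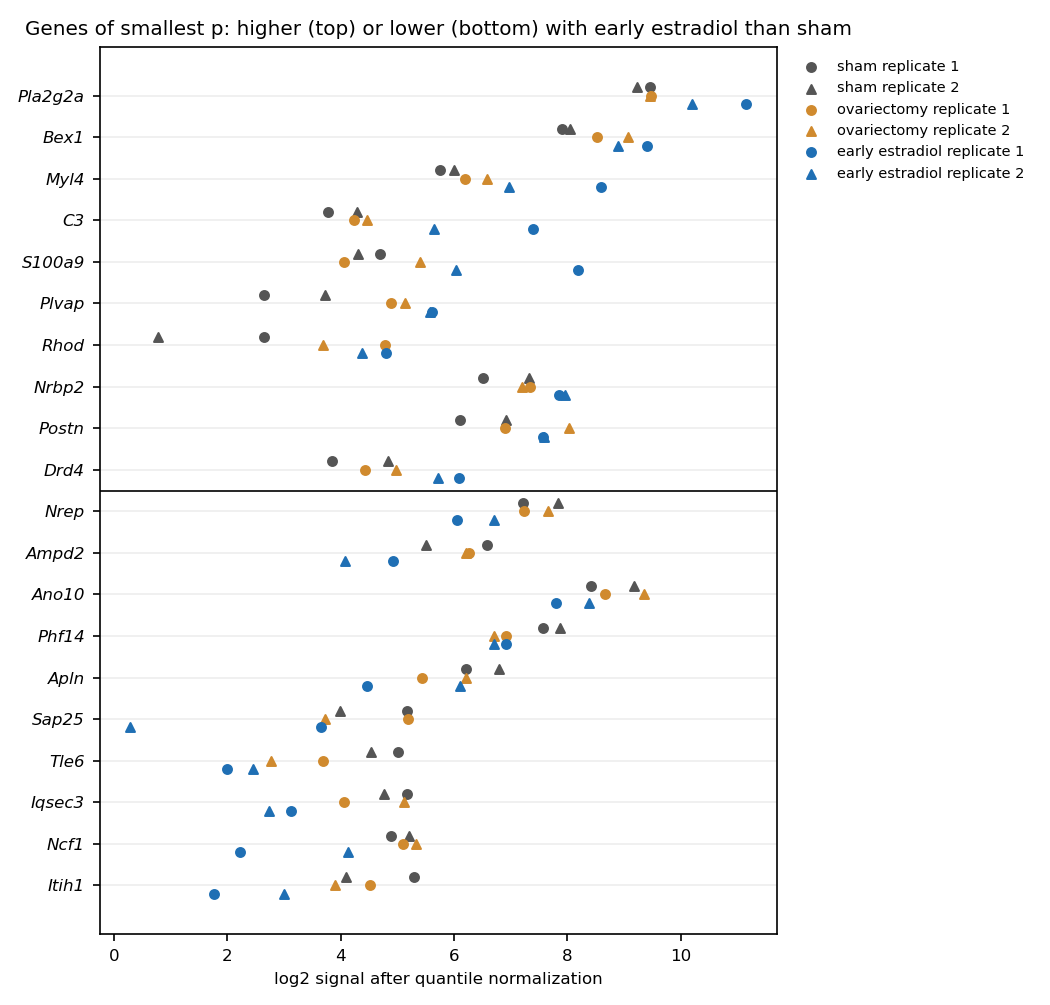
Log2 signal of the 10 genes of smallest p above sham and the 10 below sham, one point per array (grey sham, orange ovariectomy, blue early estradiol; circles replicate 1, triangles replicate 2). For Pla2g2a, S100a9, C3, Nrep and Ampd2 the ovariectomy points lie among or beside the sham points, while for Plvap, Rhod and Phf14 they lie beside the early estradiol points.

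For some of these genes the ovariectomy mean lay nearer to the early estradiol mean than to the sham mean. Their ovariectomy arrays each lay above the sham array of the same number. That was so for Pla2g2a, C3 and Myl4 too, but with ovariectomy means nearer to sham. Bex1, a small adapter protein present in neurons and stressed heart, stood at 7.90 and 8.05 in sham, 8.52 and 9.07 after ovariectomy, and 9.41 and 8.89 with early estradiol (1.18 ± 0.25), and at 10.07 and 9.53 with late estradiol. Plvap, which forms the diaphragms of endothelial pores, stood at 2.64 and 3.73 in sham, 4.89 and 5.13 after ovariectomy, and 5.60 and 5.57 with early estradiol (2.40 ± 0.60). Postn, a matricellular protein of activated fibroblasts, stood at 6.10 and 6.91 in sham, 6.89 and 8.02 after ovariectomy, and 7.56 and 7.58 with early estradiol (1.07 ± 0.29), a difference that was 0.66 without early estradiol replicate 1. In all 3 genes the sham arrays lay below the early estradiol arrays, and the 95% interval of early estradiol minus ovariectomy held 0, at 0.36 ± 0.25 for Bex1, 0.57 ± 0.60 for Plvap and 0.11 ± 0.29 for Postn. Rhod, a small GTPase of endosomes, had the same order at a lower signal, from 2.65 and 0.78 in sham to 4.80 and 4.37 with early estradiol. Nrbp2, a pseudokinase (1.99-fold), and Drd4, a dopamine receptor (1.56 ± 0.44), completed the set with Myl4, described with the atrial genes. The log2 difference of Nrbp2 was 0.58 without sham replicate 1.

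Among the genes of smallest p below sham, the brighter ones were Nrep, Ano10 and Phf14. Nrep, a protein linked to repair responses in nerve and fibroblasts, stood at 7.21 and 7.83 in sham, 7.24 and 7.66 after ovariectomy, and 6.05 and 6.71 with early estradiol (-1.14 ± 0.24). Ano10, of the anoctamin membrane protein family, stood at 8.41 and 9.18 in sham, 8.66 and 9.35 after ovariectomy, and 7.80 and 8.38 with early estradiol (-0.71 ± 0.17). In both genes the early estradiol arrays lay below all sham and ovariectomy arrays. Phf14, a chromatin reader, differed in this: it stood at 7.56 and 7.86 in sham, but at 6.91 and 6.71 after ovariectomy and 6.92 and 6.70 with early estradiol (-0.90 ± 0.24). It has 3 probe sets, and their mean differed by -0.40. Apln, the peptide ligand of a receptor that supports contraction and vessel tone, stood at 6.22 and 6.80 in sham, 5.44 and 6.21 after ovariectomy, and 4.46 and 6.10 with early estradiol (-1.23 ± 0.34).

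Ampd2, an AMP deaminase, stood at 6.59 and 5.51 in sham, 6.26 and 6.21 after ovariectomy, and 4.92 and 4.07 with early estradiol (-1.55 ± 0.36). The other genes of this set were dimmer. They were Ncf1, a subunit of the phagocyte NADPH oxidase (-1.87 ± 0.59), Itih1, a hyaluronan-binding plasma protein (-2.31 ± 0.72), the ARF exchange factor Iqsec3 (-2.03 ± 0.59), the corepressor relatives Tle6 (-2.56 ± 0.74) and Sap25 (-2.61 ± 0.75). No early estradiol array of these 6 genes reached a sham array. The difference was -0.93 for Ncf1 and -1.33 for Itih1 without early estradiol replicate 1, and -1.65 for Sap25 without replicate 2.

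The promoters of the 20 genes above were read from RefSeq, assembly GRCr8, from 250 bases before to 50 bases after the start of the gene, and 18 had an entry. On either strand, the palindromic estrogen receptor element GGTCANNNTGACC occurred in 0 of the 18, against 0.0269% of all 33469 promoters of that length. The E-box CACGTG of the clock proteins occurred in 0 (6.42% of all), and the D-box TTATGTAA in 0 (0.893%). After the values were seen, 2 sites of inflammatory transcription factors were added: the C/EBP-type site TTGCNNAA was found in 2, C3 and Postn (10.6% of all), and the NF-kB-type site GGGNNTTTCC in 1, Pla2g2a (1.53%). The sequences of Pla2g2a and C3 are shown as inflammatory genes with a match. The promoter of S100a9, which differed more from sham than either, held no match to any of these motifs. Capitals mark the matched letters, which start at position -190 in Pla2g2a (chr5:156359475-156359774, plus strand) and at -104 in C3 (chr9:2201290-2201589, minus strand). A match describes letters and is not evidence of binding.
Pla2g2a: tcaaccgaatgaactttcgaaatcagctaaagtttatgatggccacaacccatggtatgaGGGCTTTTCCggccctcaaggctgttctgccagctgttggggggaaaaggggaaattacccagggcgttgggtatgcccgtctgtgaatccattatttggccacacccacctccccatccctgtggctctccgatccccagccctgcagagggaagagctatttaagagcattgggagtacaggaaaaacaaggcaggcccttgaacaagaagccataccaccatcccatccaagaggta
C3: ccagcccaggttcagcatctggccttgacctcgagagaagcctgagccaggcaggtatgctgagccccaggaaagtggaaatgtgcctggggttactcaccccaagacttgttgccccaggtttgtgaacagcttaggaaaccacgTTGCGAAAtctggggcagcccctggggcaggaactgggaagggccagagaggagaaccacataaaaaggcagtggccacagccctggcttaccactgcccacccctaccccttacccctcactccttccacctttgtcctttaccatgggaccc

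Across gene groups, secreted inflammatory proteins, complement and macrophage markers lay above sham with early estradiol, while energy, contraction and protein turnover genes lay close to it. A gene was represented by its brightest probe set, and 10450 genes were measured. Over all of them the median difference was -0.01, 5072 were higher, 2318 were higher in both replicates (22.2%) and 2629 lower in both (25.2%). No gene of any list passed in limma, and the lists are described by counts and medians only. Some short lists of other cell types lay above sham with early estradiol too. Of 7 neuronal and Schwann cell markers 6 were higher, with a median of 0.54 that was 0.085 without early estradiol replicate 1. Of 4 blood cell markers 3 were higher, with a median of 0.48.

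**Figure D3:**
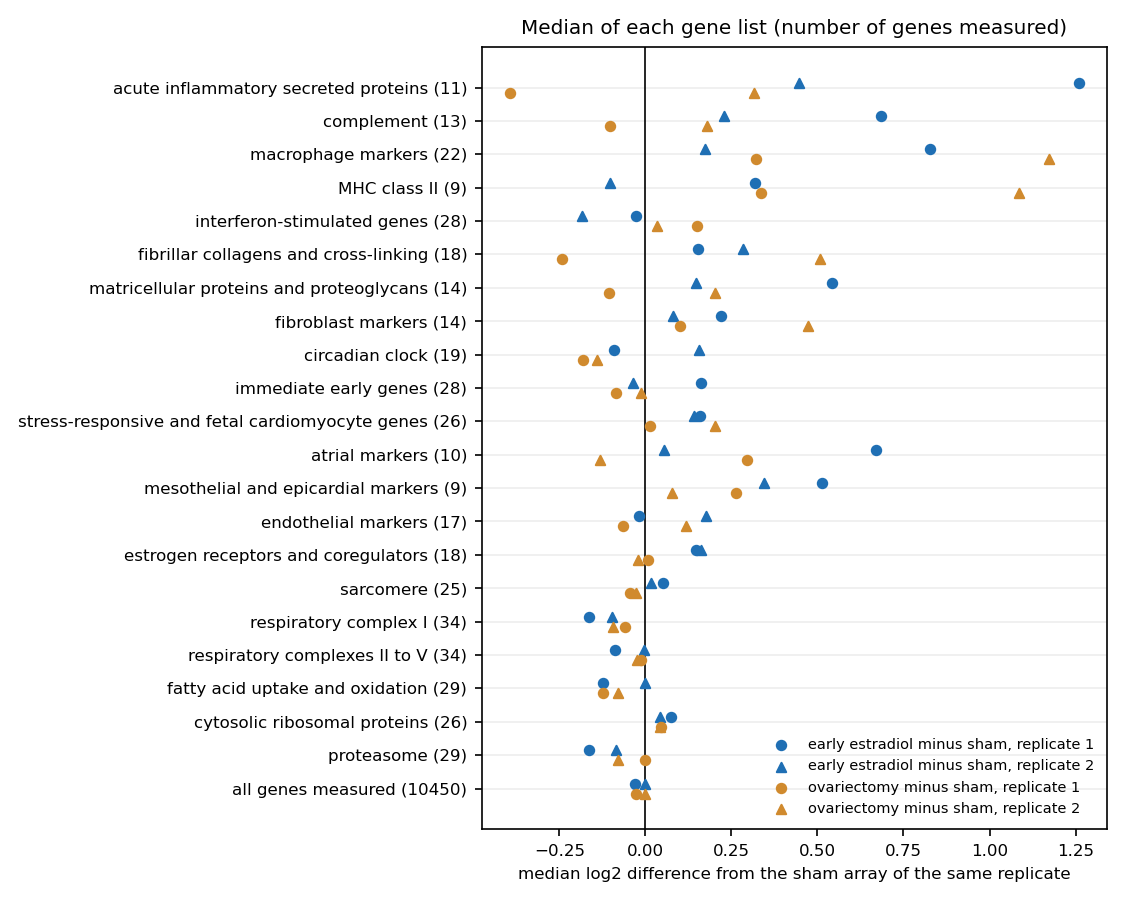
Median log2 difference of each gene list from the sham array of the same replicate (blue early estradiol, orange ovariectomy; circles replicate 1, triangles replicate 2), with the number of genes measured. The inflammatory, complement, macrophage, atrial and mesothelial lists lie right of 0 in both replicates with early estradiol, and farther in replicate 1, while the lists of energy and protein turnover lie beside 0.

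Of 11 acute inflammatory secreted proteins, 9 were higher with early estradiol and 8 in both replicates, with a median of 0.94. The medians were 1.26 in replicate 1 and 0.45 in replicate 2, and after ovariectomy alone -0.39 and 0.31. Besides Pla2g2a and S100a9, the list was led by S100a8, the partner of S100a9, and Slpi, an inhibitor of leukocyte proteases. S100a8 stood at 4.12 and 3.81 in sham, 3.55 and 4.17 after ovariectomy, and 6.60 and 4.94 with early estradiol (1.80 ± 0.64), and Slpi differed by 1.60 ± 0.57. S100a8 and S100a9 also belong to the short list of neutrophil and mast cell markers, where the mast cell genes Tpsb2 and Cpa3 differed by 0.56 ± 0.69 and 0.33 ± 0.88. The median of the inflammatory list was 0.36 without early estradiol replicate 1 and 1.53 without replicate 2.

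Of 13 complement genes, 12 were higher with early estradiol, 10 in both replicates, with a median of 0.52 (0.68 and 0.23 by replicate). Serping1, the inhibitor of the first complement component, stood at 8.76 and 8.72 in sham, 8.77 and 8.68 after ovariectomy, and 9.45 and 9.06 with early estradiol (0.52 ± 0.20). C1qb, a chain of the recognition molecule made largely by macrophages, stood at 5.96 and 6.31 in sham, 5.52 and 6.58 after ovariectomy, and 7.13 and 6.75 with early estradiol (0.80 ± 0.34). Both genes had early estradiol arrays above all sham and ovariectomy arrays. After ovariectomy alone the median of the list was 0.18, with 8 genes higher and 2 higher in both replicates, against 21.6% of all genes higher in both and 24.3% lower in both. The complement median with early estradiol was 0.081 without early estradiol replicate 1 and 0.86 without replicate 2.

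Macrophage markers lay above sham with early estradiol and after ovariectomy alone, while with late estradiol their medians had opposite signs in the replicates. With early estradiol 21 of 22 were higher, 20 in both replicates, with a median of 0.63. After ovariectomy alone 21 of 22 were higher, 12 in both replicates, with a median of 0.73. With late estradiol 12 were higher, 7 in both replicates and 6 lower in both, with a median of 0.07. Over all 10450 genes, 2701 were higher and 2904 lower in both replicates with late estradiol. The replicates carried these medians unequally: 0.83 and 0.17 with early estradiol, and 0.32 and 1.17 after ovariectomy. With late estradiol they were -0.22 and 0.25, so that replicate 2 lay above the early estradiol value. Late estradiol replicate 1 is the array with the GAPDH ratio of 2.70. Lyz2, the lysozyme of myeloid cells, stood at 9.11 and 9.04 in sham, 8.99 and 11.15 after ovariectomy, and 10.42 with early estradiol in replicate 1, and early estradiol replicate 2 lay 0.96 above its sham array (1.13 ± 0.45). The early estradiol arrays lay above both sham arrays and between the ovariectomy arrays. Aif1, a cytoskeletal protein of macrophages, differed by 2.65 ± 1.03, but this rested on a level of -0.18 in sham replicate 1 against 5.17 in sham replicate 2 and 5.09 and 5.20 with early estradiol. Without that sham array the Aif1 difference was 0.50, its other probe set had the opposite sign, and the mean of both probe sets was 0.88. Adgre1, the F4/80 antigen, differed by 1.41 ± 0.65. Without early estradiol replicate 1 the median was 0.10 with 16 higher, and without replicate 2 it was 1.24.

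MHC class II genes, which present antigen to helper T cells and are expressed by a subset of macrophages and by dendritic and B cells, did not lie above sham in the same way. With early estradiol 6 of 9 were higher but 0 in both replicates and 2 lower in both, with a median of 0.06. After ovariectomy alone 8 of 9 were higher, 6 in both replicates, with a median of 0.92. RT1-DMa, which loads peptide, stood at 5.21 and 4.99 in sham, 6.29 and 6.08 after ovariectomy, and 5.56 and 4.92 with early estradiol. RT1-Db1, a class II beta chain, stood at 5.10 and 5.55 in sham, 6.37 and 6.78 after ovariectomy, and 6.25 and 5.49 with early estradiol. Both ovariectomy arrays of RT1-DMa lay above the sham and early estradiol arrays, which overlapped, while RT1-Db1 lay just below the ovariectomy arrays on early estradiol replicate 1 and at the sham level on replicate 2. The differences from sham were 0.14 ± 0.36 and 0.55 ± 0.38, with 95% intervals of -0.65 to 0.93 and -0.28 to 1.38. Measured directly against ovariectomy, the class II median with early estradiol was -0.48, but -0.14 in replicate 1 and -1.16 in replicate 2. Of the 9 class II genes 0 were higher and 5 were lower in both replicates. Over all 10450 genes, 51.3% were higher and 2649 were lower in both. The macrophage median was -0.09, with 10 of 22 higher, and its replicates went opposite ways, at 0.84 and -0.81. No class II gene passed in that comparison either. Ciita, the activator of class II transcription, differed from sham by -0.87 ± 0.58. Without early estradiol replicate 1 the class II median against sham was -0.33 with 0 higher, and without replicate 2 it was 0.43.

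**Figure D4:**
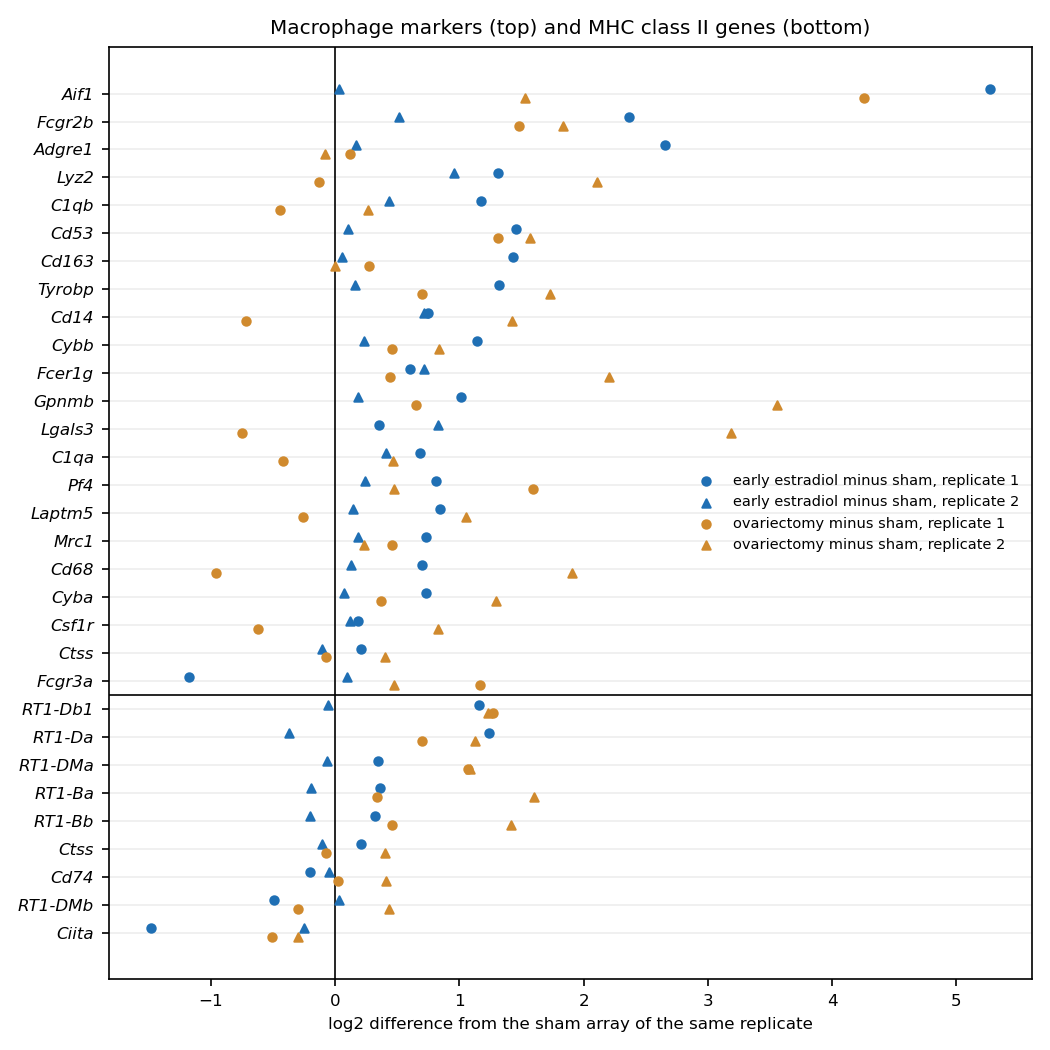
Log2 difference from the sham array of the same replicate for each macrophage marker and each MHC class II gene (blue early estradiol, orange ovariectomy; circles replicate 1, triangles replicate 2). In most macrophage markers the blue circle lies right of the blue triangle, and the blue triangles of the class II genes lie at or left of 0 apart from RT1-DMb.

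The median of the atrial markers also lay above sham, mainly on early estradiol replicate 1, and that of markers of the heart's outer lining on both early estradiol arrays. Myl4, the atrial essential light chain, stood at 5.74 and 5.99 in sham, 6.19 and 6.58 after ovariectomy, and 8.59 and 6.96 with early estradiol (1.91 ± 0.45). Myl7, the atrial regulatory light chain, stood at 6.49 and 4.81 in sham and 8.74 and 5.74 with early estradiol (1.59 ± 0.88). Nppa, the atrial natriuretic peptide, stood at 8.85 and 11.23 in sham and 11.06 and 11.25 with early estradiol (1.12 ± 0.56), so that its difference came from sham replicate 1. The Myl4 difference was 1.19 without early estradiol replicate 1. Of 10 atrial markers 7 were higher, 5 in both replicates, with a median of 0.38, which was 0.07 without sham replicate 1. Their median level was 6.10 and 6.09 in sham, 6.07 and 5.95 after ovariectomy, and 6.72 and 6.26 with early estradiol. Of 9 mesothelial and epicardial markers, a list that includes C3, 8 were higher, 4 in both replicates. Their median level was 3.98 and 4.30 in sham, 4.29 and 4.48 after ovariectomy, and 4.79 and 4.77 with early estradiol. The part of atrial or epicardial tissue in the inflammatory and complement values was not tested.

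Collagen and matricellular genes lay slightly above sham with early estradiol, and the other matrix lists lay nearer to it. The median was 0.09 for basement membrane and elastic fibres, 0.09 for metalloproteinases and inhibitors, and 0.03 for TGF-beta signalling. That of the metalloproteinase list was -0.12 without sham replicate 2. Of 18 fibrillar collagens and cross-linking enzymes 13 were higher, 9 in both replicates, with a median of 0.22, and of 14 matricellular proteins and proteoglycans 13 were higher, 9 in both, with a median of 0.26. After ovariectomy alone 12 of the 18 collagen genes were higher, 4 in both replicates, with a median of 0.08. Of the 14 matricellular genes 10 were higher, 5 in both, with a median of 0.15. With late estradiol 2 of the 18 collagen genes were higher and 11 lower in both replicates, with a median of -0.32 (-0.84 and -0.10 by replicate). Col1a1, the main chain of type I collagen, stood at 7.30 and 6.88 in sham, 7.98 and 8.31 after ovariectomy, and 8.20 and 7.59 with early estradiol (0.80 ± 0.28). Col3a1, the chain of type III collagen, stood at 9.91 and 9.74 in sham, 10.59 and 10.64 after ovariectomy, and 10.21 and 9.75 with early estradiol. For Col1a1 the ovariectomy and early estradiol arrays lay above sham, whereas the late estradiol arrays, at 6.28 and 6.60, lay below it. For Col3a1 early estradiol overlapped sham and lay below ovariectomy. The Col3a1 difference from sham was 0.15 ± 0.17, with a 95% interval of -0.23 to 0.54, and from ovariectomy -0.63 ± 0.17, which did not pass after adjustment. By p, Postn, Vcan (0.68 ± 0.32) and Thbs4 (0.85 ± 0.40) led the matricellular list. By size Spp1, the osteopontin of activated macrophages, was first, at 2.12 with an error of 2.15.

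Fibroblast markers, which share several collagens with the matrix list, had 13 of 14 higher and 11 in both replicates, at a median of 0.15. After ovariectomy alone 11 of the 14 were higher, 7 in both replicates, at a median of 0.15 too. Without early estradiol replicate 1 the fibroblast median was -0.05 with 4 higher, the matricellular median was 0.00 with 7 higher, and the collagen median was 0.10. With no normalization between arrays, where the median of all genes was -0.14, the fibroblast median was -0.00 with 6 higher.

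Vessel genes did not share a direction as a list, with 10 of 17 endothelial markers higher and a median of 0.06 that was -0.064 without early estradiol replicate 2, but the genes of smallest p lay above sham. Vwf, the von Willebrand factor of endothelium, stood at 8.89 and 8.52 in sham, 8.70 and 8.97 after ovariectomy, and 9.56 and 9.13 with early estradiol (0.64 ± 0.22). Nos3, the endothelial nitric oxide synthase and a known estradiol target, stood at 4.78 and 5.39 in sham, 4.73 and 5.55 after ovariectomy, and 5.80 and 6.16 with early estradiol (0.90 ± 0.36). In both genes the early estradiol arrays lay above the sham and ovariectomy arrays.

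Hormone receptors were at the limit of these arrays. Esr1, Esr2 and Pgr had mean signals under the filter of 3.69, so that no difference was tested. Esr1 stood at -0.13 and -0.48 in sham, 3.79 and 1.67 after ovariectomy, and 3.51 and 0.94 with early estradiol, so that the replicates of these last groups differed by over 2 units. With late estradiol it stood at 1.56 and 0.52. Gper1 differed by -0.13 ± 0.80, with a 95% interval of -1.89 to 1.63, wider than 2-fold in both directions,, and by 0.79 without early estradiol replicate 1. Of 18 estrogen receptors and coregulators 14 were higher, 9 in both replicates, with a median of 0.14, and the coactivator Ncoa6 led them by p at 0.51 ± 0.29. That median was 0.081 without sham replicate 1 and 0.24 without sham replicate 2. Of 18 genes that respond to estradiol in other tissues 12 were higher, with a median of 0.11, and Bex1 and Nos3 led them by p. That median was -0.010 without sham replicate 2 and -0.051 with no normalization between arrays.

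Most contractile and calcium genes of the muscle cell lay near sham, with exceptions among the atrial genes. The brightest probe sets sit at the top of the quantile scale, where arrays share values by rank, so their narrow intervals say little about stability. Myh6, the fast myosin heavy chain, stood at 12.73 and 12.73 in sham and 12.73 and 12.48 with early estradiol, a difference of -0.12 with a 95% interval of -0.37 to 0.13. Atp2a2, the SERCA2 pump that returns calcium to its store, differed by 0.00 (-0.23 to 0.23), and Nppb, the natriuretic peptide of ventricular load, by -0.10 (-0.43 to 0.23). The brightest probe set of Myh7, the slow myosin heavy chain, stood at 13.04 and 12.88 in sham and 13.04 and 13.22 with early estradiol, a difference of 0.17 (-0.09 to 0.42). The dimmer Myh7 probe set disagreed in size: it stood at 10.55 and 9.15 in sham, 11.04 and 10.04 after ovariectomy, and 11.52 and 10.76 with early estradiol (1.29 ± 0.27). Of 25 sarcomere genes 22 were bounded within 2-fold, with a median of 0.04 and Myl4 the farthest at 1.91. Of 29 genes of calcium cycling and ion channels 22 were bounded, with differences from -1.12 for Kcne1, a potassium channel subunit, to 1.33 for Sln, the atrial inhibitor of the calcium pump. For comparison, 6125 of all 10450 genes were bounded, and the share follows brightness as above. Of 26 stress-responsive and fetal cardiomyocyte genes 20 were higher, 13 in both replicates and 0 lower in both, with a median of 0.24, and Myl4, Nppa, Fhl1 and Myl7 led them by p. That median was 0.12 without sham replicate 1. With late estradiol 20 of the 26 were higher too, 10 in both replicates, with a median of 0.18. After ovariectomy 18 were higher, 8 in both replicates, with a median of 0.09.

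Mitochondrial and protein turnover genes lay near sham and mostly just below it. All 34 measured genes of respiratory complex I were bounded within 2-fold of sham, with differences from -0.33 to 0.10; 4 were higher, 15 were lower in both replicates, and the median was -0.10. These genes are bright, and after ovariectomy alone all 34 were bounded too. Ndufa12, a complex I subunit, stood at 12.25 and 12.22 in sham, 12.23 and 12.20 after ovariectomy, and 12.03 and 11.99 with early estradiol (-0.22 ± 0.10). Its early estradiol arrays lay below the others by a small step. All 34 genes of complexes II to V were bounded (33 after ovariectomy), with a median of -0.04 that was 0.040 with arrays centred on their median, and Cox7a1, a muscle form of a cytochrome oxidase subunit, was the farthest at -0.50 ± 0.21. Of 29 fatty acid genes 27 were bounded (26 after ovariectomy), with a median of -0.11 that was 0.040 without sham replicate 1. Ppargc1a, the coactivator that drives mitochondrial genes, differed by -0.03 (-0.51 to 0.45) on its brightest probe set. Its dimmer probe set differed by 0.50 (-0.20 to 1.19) and was higher in both replicates, so the gene was not placed near sham by both. All 29 proteasome genes were bounded with early estradiol and after ovariectomy, with 5 higher and a median of -0.11 with early estradiol. Of 26 ribosomal protein genes 25 were bounded in both groups, with a median of 0.05 with early estradiol.

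Clock genes were mixed, with 11 of 19 higher than sham and a median of 0.03 that was -0.11 without sham replicate 2. Dbp, an output factor of the clock, stood at 7.18 and 7.04 in sham, 6.61 and 6.36 after ovariectomy, and 6.46 and 6.54 with early estradiol (-0.61 ± 0.24). Per2, a repressor of the loop, differed by -0.68 ± 0.33. Dbp lay below both sham arrays after ovariectomy and with early estradiol, and also with late estradiol, at 6.91 and 6.83. The list's median after ovariectomy was -0.19. The sources used here do not give the hour at which hearts were taken, and its part in these values was not tested.

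The genes farthest from sham after ovariectomy were read with early estradiol. The 8 genes in each direction with the largest ovariectomy difference shared by both replicates were taken, so that their ovariectomy and sham values were chosen and carry no test, and the same sham arrays enter both differences. The filter, a mean of at least 3.69 over all 8 arrays, also used the early estradiol values. A dim gene that was low after ovariectomy passed it more readily where early estradiol was not low. The early estradiol values of these genes are therefore described only, and do not test a return to sham. Most of the genes below sham after ovariectomy stood near sham with early estradiol. Sinhcaf, a subunit of a histone deacetylase complex, stood at 6.02 and 5.07 in sham, 2.73 and 2.70 after ovariectomy, and 5.29 and 4.63 with early estradiol. Abcg2, an efflux transporter, stood at 4.63 and 4.58 in sham, 3.24 and 2.30 after ovariectomy, and 4.89 and 4.86 with early estradiol. In both genes early estradiol lay above ovariectomy on every array. RGD1559545, Foxd4, Cpt1c and Cpne6 differed from sham by -0.15 to -0.03 with early estradiol, and Nalcn by -0.66. Drc12, at 2.18 and 4.21 against 6.15 and 3.88 in sham, was the exception (-1.82 ± 1.05), and differed by 0.37 without early estradiol replicate 1.

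Of the genes above sham after ovariectomy, most also lay above it with early estradiol. The filter acted here too: a gene this dim in sham reached a mean of 3.69 more readily where early estradiol was high. Selp, Pole and Rhod, with means of 3.72, 3.81 and 3.84, lay just above that cut. The low sham arrays also enter both differences, so these values do not test whether early estradiol stayed above sham. Scrg1 stood at 2.82 and 2.40 in sham, 5.80 and 4.33 after ovariectomy, and 4.76 and 4.26 with early estradiol (1.90 ± 0.65). Pole, the catalytic subunit of DNA polymerase epsilon, stood at 1.06 and 3.13 in sham, 4.86 after ovariectomy in replicate 1 and 1.87 above sham in replicate 2, and 4.11 and 4.43 with early estradiol (2.17 ± 0.77). Both lay above both sham arrays on every ovariectomy and early estradiol array. Without sham replicate 1 the Pole difference was 1.38. Selp, the P-selectin of activated endothelium and platelets (1.39 ± 0.76), and Lilrb4, an inhibitory receptor of myeloid cells (1.26 ± 0.70), lay between the ovariectomy and sham means. Without early estradiol replicate 1 Lilrb4 differed by 0.075 and Cotl1, below, by 0.90. Cotl1, an actin-binding protein, differed from sham by 2.10 ± 0.74, and Rhod and Aif1 by the values above, while Oscp1 differed by 0.10 ± 0.71. These 16 genes are dim, with standard errors of 0.46 to 1.05, and the 95% intervals of their differences from sham reach beyond 2-fold in every case.

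**Figure D5:**
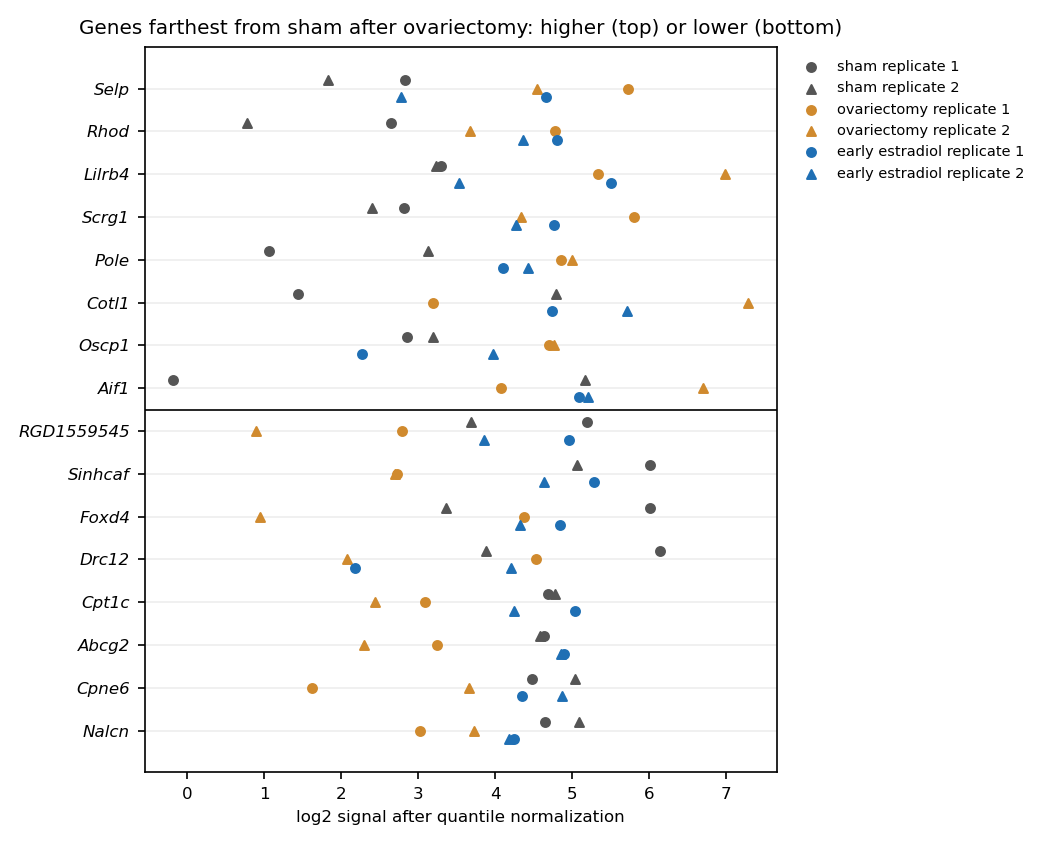
Log2 signal of the 8 genes farthest above sham and the 8 farthest below sham after ovariectomy in both replicates, one point per array (grey sham, orange ovariectomy, blue early estradiol; circles replicate 1, triangles replicate 2). The blue points lie near the grey points for most genes of the lower block and nearer the orange points for Rhod, Scrg1 and Pole in the upper block.

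The same question was then asked without reusing arrays: genes 2-fold from sham after ovariectomy in one replicate were read in the other. Of 1127 probe sets higher in replicate 1, 49.5% were again higher after ovariectomy in replicate 2, and of 1582 lower, 45.8% were again lower. Of 932 higher in replicate 2, 45.7% were again higher in replicate 1, and of 685 lower, 47.6% were again lower. The ovariectomy differences read in the other replicate had medians between -0.10 and 0.06. Read in the same way, the early estradiol difference from sham kept the direction in 49.2%, 45.9%, 51.7% and 46.6%, with medians from -0.01 to 0.05. Large ovariectomy differences of one replicate thus did not recur in the other as a set, and these sets held no shared ovariectomy difference against which a return with early estradiol could be measured. In the brighter of 2 equal groups of probe sets, an alternative chosen after seeing the data, 32.8% to 45.6% recurred after ovariectomy. The early estradiol difference there kept the direction in 43.0% of those higher and 45.3% of those lower in replicate 1. For those chosen in replicate 2 it did so in 69.0% of the higher, against 32.8% for ovariectomy, and in 32.1% of the lower.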

How the data were processed

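The series measured total RNA of rat hearts on 8 single-colour Affymetrix arrays. The authors deposited 1 linear signal intensity per probe set and array, and the submitters' processing notes name MAS5; the sources used here give no version, scaling or detection calls. Of 31099 probe sets, 57 controls were left out. Intensities were converted to log2, quantile normalized over the 8 arrays, and tests covered the 18625 probe sets whose mean reached the 40th percentile. This changes dim values most.

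Names came from the platform annotation: 20826 probe sets had 1 symbol, 436 several and 9780 none, and 20758 matched RefSeq (GRCr8) by Entrez number. A gene was represented by its brightest probe set. Group means were fitted with limma 3.58.1 (R 4.3.3), an intensity trend and the replicate number as a block, with 3 residual degrees of freedom and Benjamini-Hochberg adjustment, two-sided. Across probe sets, replicate 2 minus replicate 1 differences correlated in all 6 pairs of groups (r = 0.28 to 0.33), so the numbers were taken as pairs. The number of arrays limits the precision. The fit was tested on simulated data, with planted differences larger than that of any gene named here and the same spread for every probe set. That test does not show whether differences of the size seen here would be called.

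The comparison, the gene lists and the tests were chosen with earlier results of these data known. Named were the 10 genes per direction of smallest p with at least a 1.5-fold difference in both replicates, the 2 to 4 genes of smallest p of each list described, the 8 genes per direction farthest from sham after ovariectomy in both replicates, and 10 hormone and heart genes; other class II, collagen and mast cell genes were named after their values were seen. Alternatives varied the block, normalization, filter, trend, offset, probe set rule and arrays.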

Additional observations from a re-analysis of the deposited data

How the results depend on the processing

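Calls and counts depended on several settings. The fit with no replicate block called 0 probe sets for early estradiol minus sham, while 144 of those tested had an unadjusted p under 0.05, and bounded 7307 within 2-fold of sham, so the pairing changed no call. The fit to the early estradiol and sham arrays alone called 4. With no normalization between arrays, late estradiol minus sham gave 16 calls, early estradiol was bounded for 395 probe sets, the fibrillar collagen median was 0.092, 2 class II genes were higher, and the fibroblast median was -0.0023 with 6 higher. With no filter, 1486 probe sets were 2-fold from sham in both replicates, the mean SD of the difference from sham, 0.611 in the main setting, was 1.10, and the acute inflammatory median was 0.30. With 32 added before the log, 18107 were bounded, 1 was 2-fold apart and the SD was 0.284. In the brighter of 2 equal groups of probe sets, chosen after seeing the data, 4 were 2-fold apart and the SD was 0.346.

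Leaving out 1 array at a time gave 0 to 2 calls for early estradiol minus sham, 0 to 8 for ovariectomy minus sham (8 without ovariectomy replicate 1), 0 to 1 for early estradiol minus ovariectomy (Myl7, adjusted p = 0.0399 in limma, without ovariectomy replicate 2) and 0 to 144 for late estradiol minus sham (144 without late estradiol replicate 2). A lone array is then assumed to vary like the other groups. Bounded probe sets numbered 4498 to 9407. List medians ran from 0.10 to 1.24 for macrophage markers (16 to 21 higher), 0.081 to 0.86 for complement (9 to 13), 0.36 to 1.53 for acute inflammatory proteins, -0.33 to 0.43 for MHC class II (0 to 6), 0.10 to 0.36 for fibrillar collagens (10 to 17), 0.0049 to 0.58 for matricellular proteins (7 to 14), -0.055 to 0.39 for fibroblast markers (4 to 14) and 0.07 to 0.60 for atrial markers. The lists of macrophage, complement, acute inflammatory, collagen, matricellular and atrial genes kept the sign of their median in all 15 alternatives, class II in 12 and fibroblast markers in 13.

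The sign turned in genes whose intervals held 0. Atp2a2 was -0.13 with the mean of its probe sets, -0.026 with no normalization, and from -0.11 to 0.11 with 1 array left out. Ppargc1a was 0.23 with the mean of its probe sets, and from -0.34 to 0.28 with 1 array left out. Myh6 was 0.061 with arrays centred on their median, and from -0.26 to 0.016 with 1 array left out. With 1 array left out Nppb ran from -0.35 to 0.15, Myh7 from -0.0055 to 0.34 and Gper1 from -1.04 to 0.79, the highest without early estradiol replicate 1. The cause of these changes was not tested. Signal near background limits brightness group 1, where no difference could be bounded within 2-fold.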
